A study of Mus musculus with 10 samples.

Results

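The genes described here encode splicing factors and hnRNP proteins, measured in cultured mouse 3T3-L1 adipocytes. They were chosen by name: every probe set with a single gene symbol starting with Srsf (formerly Sfrs), Hnrnp (formerly Hnrp), Sf3a, Sf3b, Snrp or Prpf. The rule took 171 of 45037 probe sets, 33 of the Srsf family, 58 of Hnrnp, 30 of Sf3a and Sf3b, 18 of Snrp and 32 of Prpf. They stand for 59 genes, and 58 of these passed a filter on dim genes that left 10916 genes in all for testing. The gene that did not pass was Srsf12, whose value lay at the floor, the lowest value allowed, on all 10 arrays. A further 16 probe sets that name a member among several symbols were left out, and Srsf7, Hnrnpa3, Snrpa and Snrpd1 were not analysed here.

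The 3T3-L1 line is a mouse fibroblast-derived line that is grown into fat cells in culture and is a widely used model of the white adipocyte, without the blood vessels, nerves and immune cells of fat tissue. The cultures were given c9t11 CLA (called CLA here), the conjugated linoleic acid with double bonds in cis at carbon 9 and in trans at carbon 11, a fatty acid of milk and ruminant fat, or LA, an abbreviation that the labels do not spell out, and total RNA was taken at 8 h or 12 h. There was 1 array for CLA at 8 h, 1 for CLA at 12 h, 4 for LA at 8 h and 4 for LA at 12 h, the LA arrays numbered as biological replicates 1 to 4 at each time and both CLA arrays numbered replicate 1. The study asked how CLA changes gene expression against the LA controls, and with 1 CLA array at each time the spread of every comparison comes largely from the LA arrays.

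Splicing removes introns from pre-mRNA on the spliceosome, which is built from the U1, U2, U4, U5 and U6 small nuclear ribonucleoproteins (snRNPs). Sm proteins, encoded by several Snrp genes, form a ring on most of these RNAs, the SF3a and SF3b complexes hold the U2 snRNP on the branch point, and the PRPF proteins assemble and drive the U4, U5 and U6 particles and the catalytic core. SR proteins, encoded by the Srsf genes, mostly bind exons and favour their use, and hnRNP proteins coat nascent RNA and often oppose it. Many SR and hnRNP genes regulate their own mRNA through exons that trigger its decay, and alternative splicing of several factors accompanies fat cell formation.

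All 4 arrays numbered replicate 1, the CLA pair and the LA pair, stood apart from the 6 LA arrays of replicates 2 to 4 before normalisation. Their 75th percentile of probe set intensity was 26.4 to 39.5, against 54.4 to 76.8. The 3' to 5' ratio of the Actb control probe sets, a measure of RNA integrity, was 1.62 to 1.70 on the replicate 1 arrays and 1.45 to 5.67 on the other LA arrays, with the highest value on the replicate 4 array of 12 h. Adipocyte markers (5 measured of 7, none at the floor throughout) had a summed intensity of 25190 to 28880 on the replicate 1 arrays and 20716 to 28415 on the others. The sum of 9 preadipocyte and fibroblast markers ran from 9759 to 14717 on the replicate 1 arrays and from 13953 to 31658 on the others, and that of 5 markers of dividing cells from 278 to 456 and from 474 to 2316. Macrophage markers (5, of which Lyz2 and Itgam were at the floor on every array) summed to 195 to 294 and to 109 to 364, and muscle and brown fat markers (6, of which Myod1, Myog and Ucp1 were at the floor on every array) to 260 to 322 and to 85.7 to 183. The part of these differences in the results below was not tested, and in bulk RNA fewer cells of a type cannot be told apart from less RNA per cell. Because of this split, CLA results are also given with replicate number as a block.

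Values are log2 of quantile-normalised intensity with a floor of 3.84, and 1 probe set, the brightest, stands for each gene. Intensities of different probe sets are not on a common scale, so levels are compared between arrays within a gene and not between genes. The mean over the 10 arrays ran from 6.70 to 9.94 for the 9 tested Srsf genes, 5.45 to 10.5 for the 19 Hnrnp genes, 6.03 to 8.85 for the 9 SF3 genes, 4.09 to 10.6 for the 9 Snrp genes and 4.99 to 9.62 for the 12 Prpf genes. Only 2.24% of the values of the tested members lay at the floor, and 54 genes were never there.

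Among the LA cultures, in the arrays of replicate 1, Sf3b1, Hnrnpa1, Hnrnph1 and Hnrnpdl were lower than in replicates 2 to 4, by 1.42 to 2.26 on the log2 scale, while most other SF3 genes, Srsf2, Srsf6 and Prpf8 had values close to or above those of the other replicates. With each replicate number taken as 1 unit (the mean of its 8 h and 12 h arrays, 1 against 3 units), these 4 of 58 members passed an adjusted p of 0.05, all lower; over all genes 2.57% passed as lower and 8.79% in either direction. The comparison was made because replicate 1 was already known to stand apart, so its p-values are a description. They also lie close to the threshold: leaving out the replicate 3 or 4 array of 8 h, or the replicate 2 or 4 array of 12 h, left 0 members and 0% of all genes called. Scaling the linear values to equal array medians also left 0 members, with 1.31% of all genes called. There was 1 call without the replicate 1 array of 8 h (4.44% of all genes), 8 without the replicate 2 array of 8 h (10%) and 7 without the replicate 3 array of 12 h (9.12%). At an unadjusted p under 0.05, limma counted 18 members as lower and 0 as higher, against 14.3% and 18.5% of all genes. In either direction, 40 members were lower and 18 higher in replicate 1 (43.2% of all genes were lower) with a median of -0.61, against a median of 0.18 over all genes tested. In all, 15 members were lower by 1 or more, 25.9% of them against 16.3% of all genes. On the other side, 1 was higher by 1 or more, 1.72% against 16.6%. Without any scaling 22 members passed, all lower, where 14.8% of all genes passed in either direction around a median of -0.53. The differences of Srsf2, Srsf6 and Prpf8 changed sign with the setting. Across the alternative settings they ran from -0.78 to 0.64, from -0.41 to 0.30 and from -0.40 to 0.33. Those of Srsf4 and Snrpc ran from -0.51 to 0.47 and from -0.29 to 0.43.

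Overlaps were also counted without a model. They rest on the same normalised values and the same split, so they describe the difference again and are no separate support. Both LA replicate 1 arrays lay below all 6 other LA arrays for 31 members (53.4%, against 22.5% of all genes tested) and above all 6 for 6 members (10.3% against 29.9%). The CLA arrays joined them: all 4 replicate 1 arrays lay below all 6 LA arrays of replicates 2 to 4 for 27 members (46.6% against 17.6%) and above for 3 (5.17% against 22.5%).

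**Figure D1:**
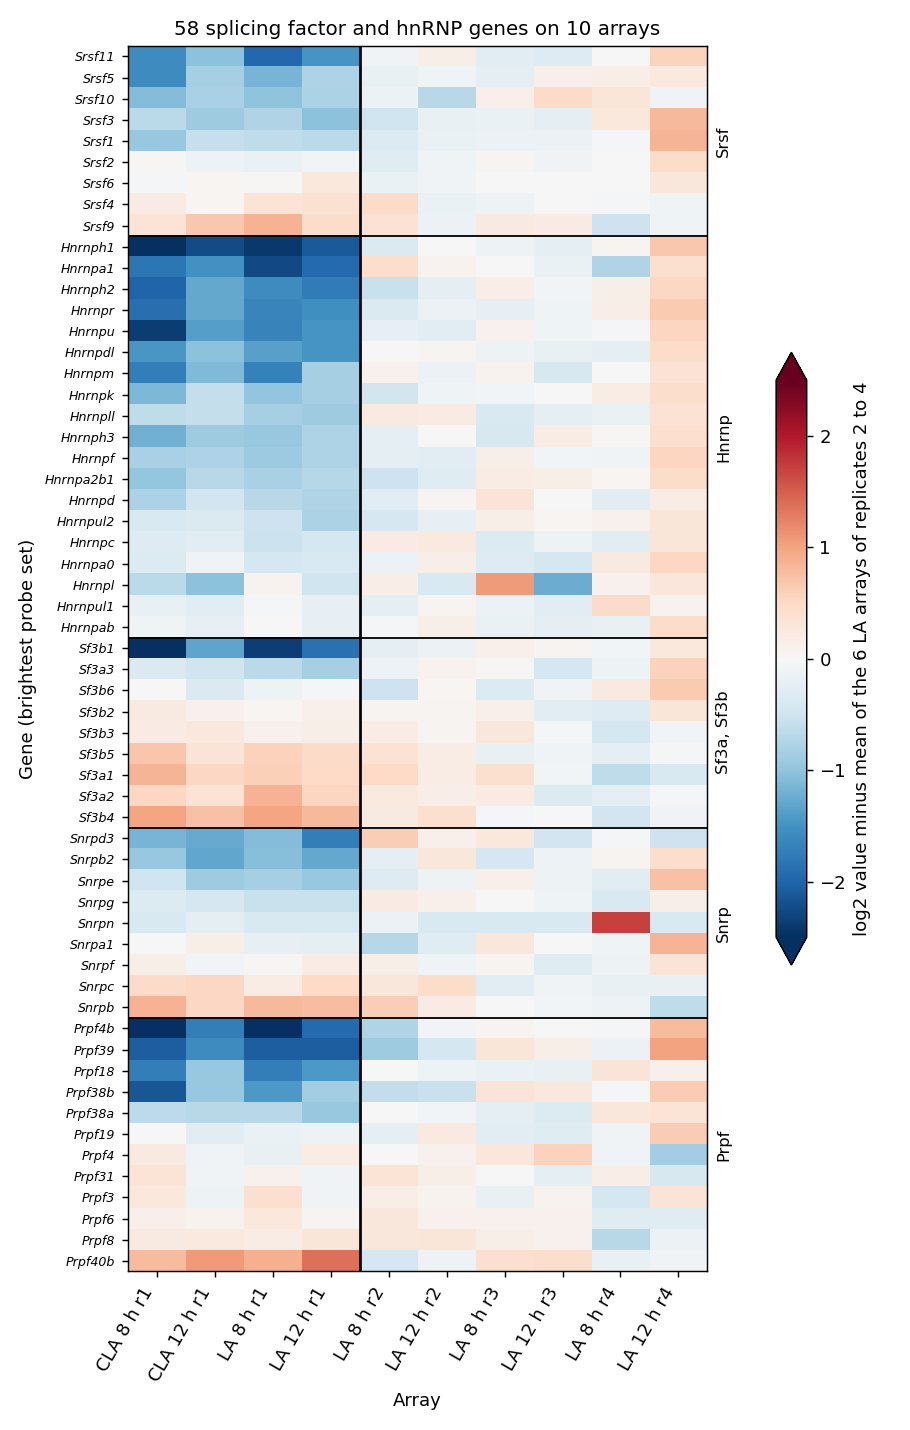
Heat map of the 58 tested genes (rows, by family, in order of the LA replicate 1 difference) on the 10 arrays (columns); colour is the log2 value minus the gene's mean over the 6 LA arrays of replicates 2 to 4, blue lower and red higher, saturating at 2.5. The 4 replicate 1 arrays left of the line share a block of blue in the Hnrnp rows and in Sf3b1, and pale or red cells in the other SF3 rows.

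A test across all 4 LA replicate numbers, a moderated F test with time as a covariate, called 33 of 58 members, 56.9% against 50.1% of all genes. By family it called 14 of 19 Hnrnp genes, 4 of 9 Srsf genes, 5 of 9 SF3 genes, 4 of 9 Snrp genes and 6 of 12 Prpf genes. The 10 with the smallest p were Hnrnph1, Sf3b1, Snrpd3, Hnrnpr, Srsf11, Hnrnph2, Prpf4b, Hnrnpu, Hnrnpk and Prpf18, with adjusted p from 0.0035 to 0.0075. Leaving out 1 array moved this count: it was 0 without the replicate 1 array of 8 h and 3 without that of 12 h (3.72% and 12.0% of all genes were then called), 16 without the replicate 2 array of 8 h and 17 without that of 12 h (20.9% and 24.5%).

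Among the hnRNP genes all 19 were lower in LA replicate 1, with a median difference of -0.86 and a range from -2.26 to -0.11. The smallest, Hnrnpab, depended on the setting: it was at 0.09 with equal array medians, and its 5 bright probe sets ran up to 0.34. Hnrnpl, at -0.21, also changed sign, reaching 0.12 at the highest of the alternative settings. Hnrnph1 (chr11:50375257-50386528 in GRCm38.p6, as for the genes below), whose protein binds runs of G, read 7.14, 9.19, 9.41 and 9.62 on the 8 h LA arrays of replicates 1 to 4 and 7.44, 9.54, 9.30 and 10.2 on the 12 h LA arrays. The CLA arrays gave 6.56 at 8 h and 7.32 at 12 h, so that the replicate 1 arrays of both fatty acids lay below all others. Its LA difference was -2.26 (SE 0.33, adjusted p 0.050). Hnrnpa1 (chr15:103239943-103246698), which binds exonic silencers, read 6.02, 8.71, 8.26 and 7.52 at 8 h and 6.33, 8.36, 8.10 and 8.66 at 12 h with LA, and 6.46 and 6.76 with CLA. Here too the groups did not overlap, and the difference was -2.09 (SE 0.27, adjusted p 0.043). The probe set behind it carries the suffix that Affymetrix gives to sets with probes matching other sequences, and Hnrnpa1 has processed pseudogenes, so its signal may include them. Hnrnpdl (chr5:100033577-100039936), a relative of the mRNA decay factor Hnrnpd, read 8.65, 10.02, 9.89 and 9.78 at 8 h and 8.53, 10.1, 9.81 and 10.5 at 12 h with LA, and 8.55 and 8.98 with CLA. The replicate 1 values were again the lowest of the 10, with a difference of -1.42 (SE 0.20, adjusted p 0.047).

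Hnrnpu, a nuclear scaffold protein, missed the threshold in the same comparison with a difference of -1.57 (SE 0.26, adjusted p 0.061). Its values were 8.40, 9.87, 10.17 and 10.01 on the 8 h LA arrays, 8.58, 9.77, 9.97 and 10.6 on the 12 h LA arrays, and 7.70 and 8.68 on the CLA arrays, with no overlap between replicate 1 and the rest. Hnrnph2 and Hnrnpr had differences of -1.66 and -1.60, Hnrnpm of -1.25 and Hnrnpk, which binds C-rich RNA, of -0.91 (adjusted p 0.088 to 0.16). Hnrnph3, Hnrnpa2b1 and Hnrnpd lay at -0.86, -0.76 and -0.72. Hnrnpc, which binds uridine tracts, was at -0.49 (SE 0.26) and Hnrnpab at -0.11 (SE 0.22), both within about 2 standard errors of 0. For Hnrnpab the LA replicate 1 arrays overlapped the others. For Hnrnpc they lay below the others, and only the CLA arrays of replicate 1 overlapped them. Hnrnpl, which binds CA repeats, differed most between times in replicate 3, with 8.55 and 6.24 on its arrays of 8 h and 12 h. Its 12 h minus 8 h values in replicates 1 to 4 were -0.59, -0.54, -2.31 and 0.18.

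The SF3 genes divided into a single gene far lower in replicate 1 and 8 others. Sf3b1 (chr1:54985169-55027501), the subunit that clamps the branch point helix, read 7.23, 9.33, 9.70 and 9.50 at 8 h and 7.71, 9.43, 9.64 and 9.84 at 12 h on the LA arrays, and 6.97 and 8.26 on the CLA arrays. All 4 replicate 1 values lay more than 1 log2 unit below the other 6, and the LA difference was -2.10 (SE 0.21, adjusted p 0.027). Its partner Sf3b2 read 8.12, 8.16, 8.21 and 7.77 at 8 h and 8.21, 8.16, 7.82 and 8.38 at 12 h with LA, and 8.30 and 8.19 with CLA. Those values overlapped throughout, with a difference of 0.09 (SE 0.17). Sf3b3 was at 0.13, Sf3b6, which contacts the branch point adenosine, at -0.09, and Sf3a3 at -0.76 (SE 0.33). Another 4 lay on the higher side without passing: Sf3b4 at 0.89 (SE 0.31, adjusted p 0.16), Sf3a2 at 0.71, Sf3a1 at 0.55 and Sf3b5 at 0.53. Sf3b4 read 8.79, 8.03, 7.76 and 7.32 at 8 h and 8.61, 8.21, 7.80 and 7.73 at 12 h with LA, and 8.80 and 8.53 with CLA, so the 4 replicate 1 arrays were the highest. The signs of Sf3b2, Sf3b3, Sf3b5, Sf3a1 and Sf3a2 depend on the scaling: without it they were -0.65, -0.52, -0.11, -0.35 and -0.12, against a median of -0.53 over all genes.

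The promoters of Sf3b1 and of 3 other SF3 genes without a called difference are shown because the genes encode parts of the same U2 snRNP. The bases are those upstream of the annotated start (RefSeq, GRCm38.p6), from 250 bases before it up to it, except that for Sf3b1 the last 23 were left out because they lie within the annotated gene. Capitals mark CCGGAAG, the core bound by ETS factors, and GGGCGG, the GC box, on either strand; in Sf3b6 a copy of each abuts.
Sf3b1, chr1:55027502-55027728, minus strand: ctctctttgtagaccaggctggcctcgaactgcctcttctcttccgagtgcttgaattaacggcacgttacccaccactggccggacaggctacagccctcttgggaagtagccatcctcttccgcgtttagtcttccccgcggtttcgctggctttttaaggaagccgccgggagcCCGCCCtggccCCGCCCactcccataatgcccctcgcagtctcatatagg
Sf3b2, chr19:5295458-5295707, minus strand: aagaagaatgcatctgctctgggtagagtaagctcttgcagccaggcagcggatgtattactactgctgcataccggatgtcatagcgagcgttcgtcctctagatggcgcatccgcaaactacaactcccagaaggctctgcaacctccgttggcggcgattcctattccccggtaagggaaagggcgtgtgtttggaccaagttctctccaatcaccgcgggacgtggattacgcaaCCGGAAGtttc
Sf3b6, chr12:4817358-4817607, plus strand: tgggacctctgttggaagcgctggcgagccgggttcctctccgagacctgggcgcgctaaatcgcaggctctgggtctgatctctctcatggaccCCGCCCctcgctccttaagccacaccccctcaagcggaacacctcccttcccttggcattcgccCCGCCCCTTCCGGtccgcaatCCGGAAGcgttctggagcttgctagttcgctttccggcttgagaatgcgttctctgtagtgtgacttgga
Sf3a3, chr4:124714611-124714860, plus strand: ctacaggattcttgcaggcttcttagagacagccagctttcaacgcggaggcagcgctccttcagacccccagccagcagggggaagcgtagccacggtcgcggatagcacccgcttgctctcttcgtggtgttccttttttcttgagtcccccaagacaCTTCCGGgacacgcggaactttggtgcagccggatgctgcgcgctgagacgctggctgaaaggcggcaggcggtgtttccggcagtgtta
In these windows CCGGAAG or its reverse complement stood 11 bases before the start of Sf3b2, 85 and 70 before that of Sf3b6 and 90 before that of Sf3a3. It had no match in the Sf3b1 window. That window held a GC box 73 and 62 bases before the start, a count that includes the 23 bases left out above.

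A window was found for 53 of the 59 member genes, and the 250 upstream bases were searched on both strands. CCGGAAG occurred in 17 of the 53 (32.1%), against 15.9% of the 8902 genes tested that have a window and 7.83% of all 27025 genes with one. It occurred in 6 of the 7 SF3 genes with a window, all but Sf3b1, and in 2 of 17 Hnrnp genes, 3 of 10 Srsf genes, 3 of 8 Snrp genes and 3 of 11 Prpf genes. GGGCGG occurred in 66.0% of members and 64.1% of the genes tested, CCAAT in 50.9% and 40.5%, and TATAAA in 9.43% and 8.03%. The motifs do not contain one another. Among tested members, the 17 with CCGGAAG had a median LA replicate 1 difference of -0.14 (10 lower) and the 35 without it a median of -0.76 (27 lower), with ranges of -2.73 to 0.71 and -2.26 to 1.13 that overlap almost throughout. For GGGCGG the 34 with it had a median of -0.83 (27 lower) and the 18 without it -0.26 (10 lower). For CCAAT the medians with and without it were -0.49 and -0.72, and for TATAAA -0.39 and -0.66. The motif groups also differ in their mix of families, as counted above, and the part of either was not tested. These matches are a description of letters and not of binding.

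**Figure D2:**
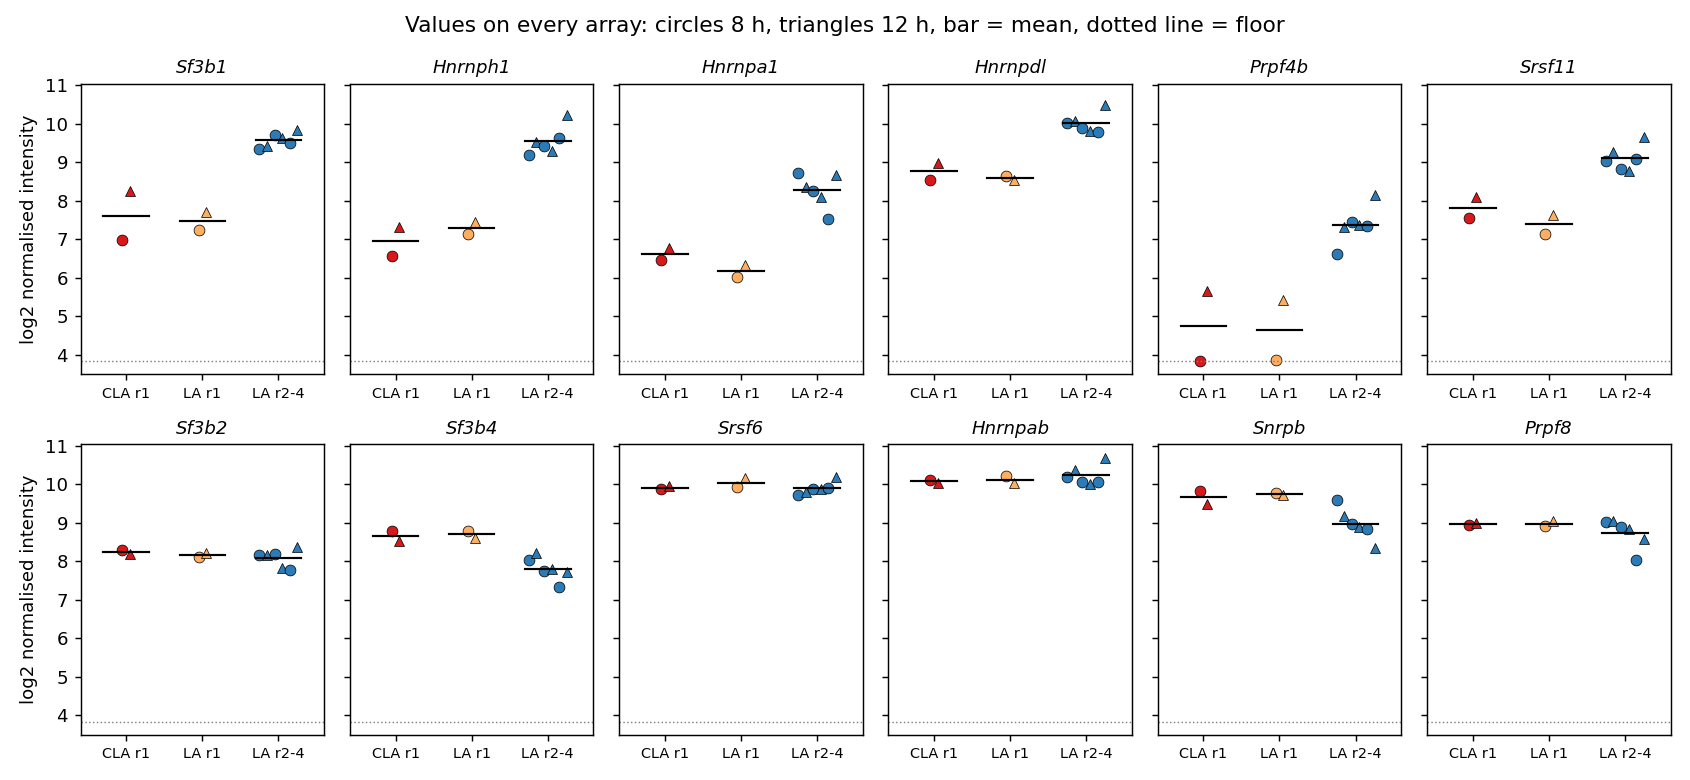
Log2 normalised intensity (vertical axis) of 12 genes on every array, with the CLA arrays, the LA arrays of replicate 1 and the LA arrays of replicates 2 to 4 side by side; circles are 8 h, triangles 12 h, bars means and the dotted line the floor. In the upper row the 4 replicate 1 arrays lie below the other 6, and in Sf3b2, Srsf6 and Hnrnpab they overlap them.

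Of the 9 tested Srsf genes, 6 were lower and 3 higher in LA replicate 1, with a median of -0.66 and no call. Srsf11 was at the low end with -1.72 (SE 0.30, adjusted p 0.063). It read 7.14, 9.02, 8.83 and 9.09 on the 8 h LA arrays, 7.63, 9.26, 8.78 and 9.66 on the 12 h LA arrays and 7.54 and 8.09 on the CLA arrays, and replicate 1 did not overlap the rest. Srsf5 was at -0.97 (SE 0.22), Srsf10, a repressor of splicing when dephosphorylated, at -0.90, Srsf3, which also takes part in mRNA export, at -0.88, and Srsf1, the first SR protein described, at -0.66. In each of these 4 genes the 4 replicate 1 arrays lay below the other 6. Srsf2 was at -0.12 (SE 0.24) and Srsf6 at 0.14 (SE 0.20). Srsf6 read 9.92, 9.73, 9.89 and 9.91 at 8 h and 10.2, 9.81, 9.88 and 10.2 at 12 h with LA, and 9.88 and 9.96 with CLA; the groups overlapped. Srsf4 and Srsf9 had differences of 0.35 (SE 0.24) and 0.66 (SE 0.29).

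The Snrp genes had 6 lower and 3 higher members, a median of -0.39 and no call. Snrpd3, a protein of the Sm ring, read 7.36, 9.06, 8.71 and 8.42 at 8 h and 6.72, 8.58, 7.97 and 7.94 at 12 h on the LA arrays, and 7.29 and 7.19 on the CLA arrays. The replicate 1 values lay below the others at a difference of -1.41 (SE 0.34, adjusted p 0.10). Snrpb2, of the U2 snRNP, was at -1.17 (SE 0.29), and the ring proteins Snrpe and Snrpg at -0.89 and -0.56. Another ring protein, Snrpb, was on the opposite side at 0.79 (SE 0.38), with 9.78, 9.59, 8.98 and 8.84 at 8 h, 9.74, 9.17, 8.90 and 8.34 at 12 h and 9.83 and 9.49 with CLA. The CLA array of 12 h lay below the replicate 2 array of 8 h, so here the replicate 1 arrays overlapped the rest. Snrpa1 and Snrpc were at -0.21 and 0.34, both within 2 standard errors of 0. Snrpn, an imprinted gene known chiefly from brain, lay at the floor on 7 arrays and read 3.99, 4.07 and 5.93 on the CLA array of 12 h and the LA arrays of replicates 2 and 4 at 8 h.

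Of the 12 Prpf genes, 6 were lower and 6 higher, with a median of -0.07 and no call, and the family held both extremes. Prpf4b (chr13:34874820-34906064), a kinase of the tri-snRNP, read 3.85, 6.61, 7.44 and 7.33 at 8 h and 5.43, 7.31, 7.37 and 8.15 at 12 h with LA, and 3.84, the floor, and 5.64 with CLA. Its difference of -2.73 (SE 0.42, adjusted p 0.055) was the lowest of all members. Prpf39, of the U1 snRNP, was at the floor on both LA replicate 1 arrays and between 5.01 and 6.90 on the other 6, so that its difference of -2.06 is limited by the floor. Prpf18, which acts in the second catalytic step, was at -1.58 and Prpf38b at -1.16. Prpf40b had the highest difference of all members, 1.13 (SE 0.41, adjusted p 0.17), with 6.07 and 6.56 on the LA replicate 1 arrays against 4.74 to 5.64 on the other LA arrays. Prpf8, the scaffold of the catalytic core, was at 0.24 (SE 0.37) and Prpf19, a ubiquitin ligase, at -0.14 (SE 0.29).

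CLA against LA over both times gave no call among the 58 members, and none among all 10916 genes (0%). At an unadjusted p under 0.05, limma counted 6 members as lower and 0 as higher, against 4.65% and 4.47% of all genes. That count of lower members was 0 without the CLA array of 8 h and 3 without that of 12 h (0.238% and 1.71% of all genes were lower), and 19 and 20 without the LA replicate 1 array of 8 h and of 12 h (11.4% and 11.9%). In direction 40 members were lower with CLA (41.5% of all genes were) and 18 higher, with a median of -0.24 beside 0.15 over all genes tested. All 19 Hnrnp genes were on the lower side (median -0.64), although Hnrnpc and Hnrnpab were at 0.14 and 0.18 with equal array medians, as were 7 of 9 Srsf genes (median -0.56), whereas 6 of 9 SF3 genes were on the higher side (median 0.21). The lowest values were those of Hnrnph1 (-2.04, SE 0.70), Prpf4b (-1.95, SE 0.89), Hnrnpu (-1.48, SE 0.53) and Sf3b1 (-1.43, SE 0.66), each at an adjusted p of 0.46. Srsf5 was at -0.96 (SE 0.35), and on the higher side Sf3b4 was at 0.64 (SE 0.37), Sf3a1 at 0.56 (SE 0.38) and Snrpc at 0.42 (SE 0.27).

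These CLA values share their control arrays with the replicate comparison, and they changed once the replicate number was a block, a fit in which CLA is set against LA replicate 1. The member median was then 0.05 and that of the Hnrnp genes 0.03, with 11 of 19 higher and 8 lower, and no member had an unadjusted p under 0.05 (4.53% of all genes did). Hnrnph1 was at -0.35 (95% interval -0.85 to 0.15), Sf3b1 at 0.15 (-0.52 to 0.81), Hnrnpu at -0.30 (-0.94 to 0.33), Prpf4b at 0.10 (-0.85 to 1.04) and Hnrnpa1 at 0.43 (-0.31 to 1.17). For 51 of 58 members the interval lay within 1 log2 unit of 0, 87.9% against 66.2% of all genes, and those of the rest reached past it.

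**Figure D3:**
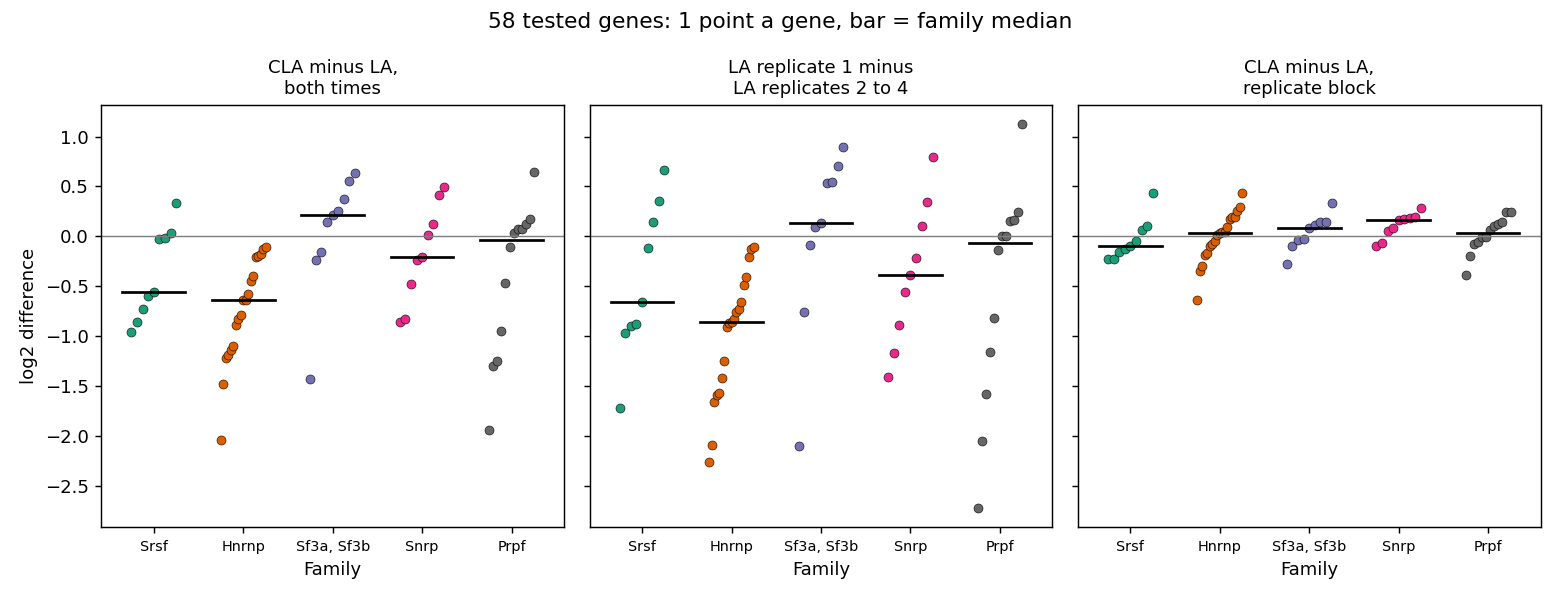
Log2 differences of the 58 tested genes by family, 1 point a gene with the family median as a bar, for CLA minus LA over both times, LA replicate 1 minus LA replicates 2 to 4, and CLA minus LA with replicate number as a block; all panels share LA arrays. The Hnrnp median is -0.64 and -0.86 in the first and second panels and 0.03 in the third.

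The authors' deposited table, which pools both times, was read at the brightest probe set of each gene. At its p under 0.05, 23 of the 58 genes had a ratio of CLA over LA below 1 and 0 above. Of all genes tested, 17.1% were below and 9.42% above. Dimmer probe sets of members passed that p on both sides, among them Srsf2 at 1.87 (p 0.00049) and Hnrnpu at 0.0784 (p 0.00054). At the brightest probe set Hnrnph1 had a ratio of 0.170 (p 0.00262), Hnrnpu of 0.303 (p 0.00013) and Sf3b1 of 0.353 (p 0.00274). Sf3b2 had 1.13 (p 0.163) and Srsf6 0.941 (p 0.458). Another probe set of Sf3b2 was at 1.57 (p 0.018) and another of Srsf6 at 0.679 (p 0.00271). The remaining probe sets of these 2 genes had a p above 0.05. How the authors' deposited table treats the replicate numbers is not given in the sources used here.

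By time, neither 8 h nor 12 h gave a call (0% of all genes at each). Lower values were seen in 36 members at 8 h and 42 at 12 h, against 42.5% and 44.2% of all genes, and all 19 Hnrnp genes were among them at both times (medians -0.80 and -0.60). With the block the Hnrnp genes had 11 lower and 8 higher at 8 h (median -0.10) and 6 lower and 13 higher at 12 h (median 0.13), and of all members 27 and 26 were lower. At 8 h limma counted 3 members with an unadjusted p under 0.05, all lower (1.72% of all genes were): Hnrnpu at -1.91 (SE 0.78), Srsf5 at -1.21 (SE 0.52) and Prpf38b at -1.69 (SE 0.74). With the block, 2 of these, Hnrnpu and Prpf38b, still had an unadjusted p under 0.05 (5.93% of all genes did), and none passed after adjustment. At 12 h limma counted 0 members (1.70% of all genes), with Hnrnph1 at -1.81 (SE 1.07), Snrpb2 at -1.13 (SE 0.65), Hnrnph3 at -0.85 (SE 0.59) and, higher, Srsf9 at 0.57 (SE 0.49) and Prpf40b at 0.66 (SE 0.72). With the block Sf3b1 alone had an unadjusted p under 0.05 at 12 h, on the higher side (5.83% of all genes did in either direction). The interaction of fatty acid and time also gave no call (0%) and 0 members at an unadjusted p under 0.05 by limma (1.06% of all genes). With the block 3 members were at an unadjusted p under 0.05 (6.68% of all genes were): Sf3b1 at 1.07, Hnrnpu at 0.86 and Sf3b6 at -0.71, where a positive value is a less negative or more positive CLA difference at 12 h.

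Between 8 h and 12 h of LA no member passed (0% of all genes) and none had an unadjusted p under 0.05 by limma (0.257% of all genes). Values were nonetheless more often higher at 12 h, in 41 of 58 members (70.7%) against 48.8% of all genes, with a median of 0.13 beside -0.01. The replicates were uneven. Taken from each gene's mean over the arrays, the member median went from 0.18 at 8 h to 0.58 at 12 h in replicate 4. In replicates 1, 2 and 3 it went from -0.36 to -0.31, from 0.12 to 0.17 and from 0.16 to 0.05. The part of the high Actb 3' to 5' ratio of the replicate 4 array of 12 h was not tested. Of 19 Hnrnp genes, 17 were on the higher side (median 0.14). With the replicate block, which compares the times within a number, 3 members had an unadjusted p under 0.05 (4.21% of all genes) and none an adjusted one. Snrpd3 was lower at 12 h in all 4 replicates, by 0.64, 0.48, 0.74 and 0.49 (-0.59 in the mean), Sf3b6 was higher in all 4 (0.33) and Prpf4b was higher in 3 of 4 (0.76). Prpf19 and Hnrnpl had means of 0.30 and -0.81, the latter with -2.31 in replicate 3.

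Probe sets of the same gene did not always give the same value. In 34 genes at least 2 probe sets were bright (tested and at the floor on no more than 2 arrays), and all had the same sign in the LA replicate 1 difference in 26 genes and in the CLA difference in 23. Sf3b1 was even, with 3 probe sets from -2.40 to -1.84, and the 6 of Hnrnpdl shared a sign over a wider range, from -2.77 to -1.42. Srsf2 was not: its brightest probe set was at -0.12 and the 3 others at 0.66, 0.71 and 1.29. Among 5 probe sets Sf3b2 ran from -0.19 to 0.89 and Prpf4b from -2.73 to -0.96, and the 6 probe sets of Srsf1 ran from -1.94 to -0.23 and those of Srsf3 from -1.75 to -0.15. For Prpf38b the values were -2.56 and -1.16, and for Hnrnpa2b1 they ran from -2.16 to -0.76. The probe sets can read different transcript ends or exons, and which of these each reads was not determined here. Tested one by one, 73 of 150 member probe sets differed among the LA replicate numbers (48.7% against 33.7% of all probe sets), and 110 were lower in LA replicate 1, where 46.2% of all tested probe sets were lower.

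**Figure D4:**
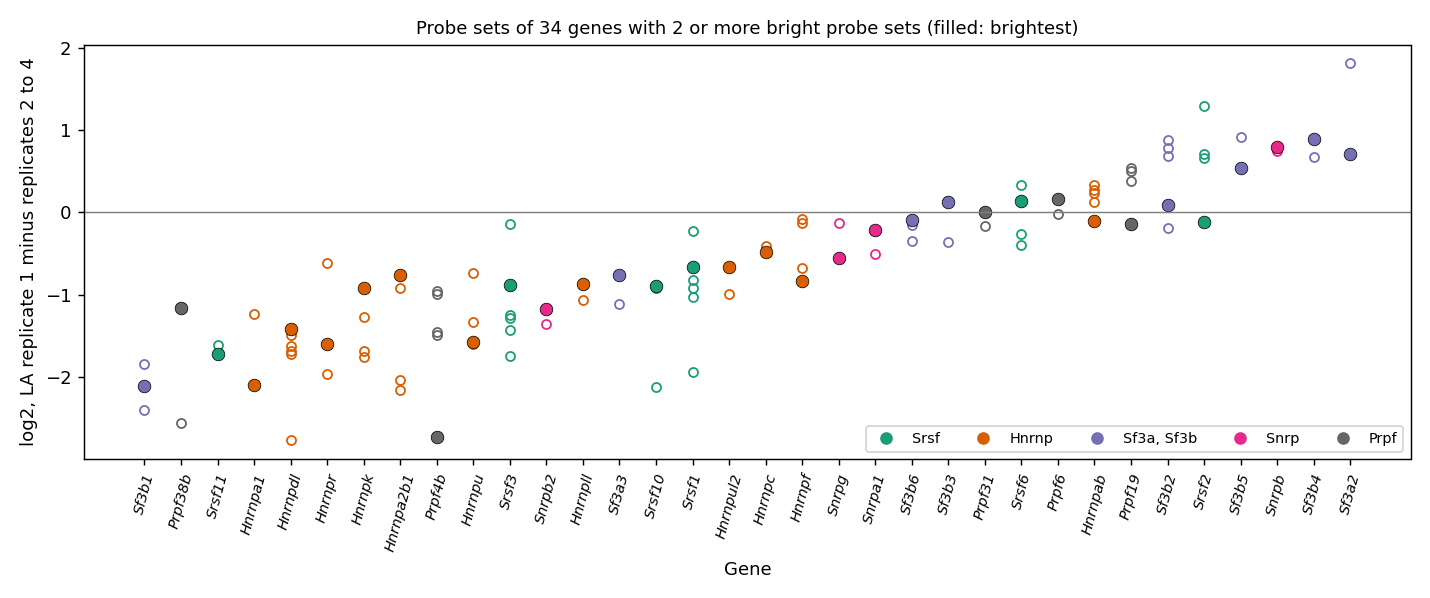
Log2 difference of LA replicate 1 from LA replicates 2 to 4 (vertical axis) for each bright probe set of the 34 genes with 2 or more, genes ordered by their median and coloured by family, the brightest probe set filled. Sf3b1 and Hnrnpdl have all their probe sets below -1, while Srsf2 and Sf3b2 straddle 0.

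Splicing genes outside these name families were read from 7 lists chosen with earlier results known. Of 68 tested genes 47 were lower in LA replicate 1, where 43.2% of all genes were lower. Among the 68, 6 were called lower and 0 higher (2.57% and 6.22% of all genes). The list of other splicing regulators had 13 of 14 lower with a median of -1.71, among them the called Tia1 (-2.45), which binds U-rich 5' splice site regions, and Qk (-1.77), together with Mbnl1 at -2.41, and Ptbp1 alone was higher at 0.86. In the list of exon junction and SR related genes 8 of 9 were lower (median -1.15), with Son called at -1.75, and Luc7l2, Luc7l3 and Dhx15 were called in the lists of U1 and U2 recognition and of helicases. Medians of the other lists were nearer 0: -0.41 for SR protein kinases, -0.17 for the complex around Prpf19, -0.08 for the LSm ring and 0.03 for helicases and U5 proteins. None of the 68 passed in CLA against LA (0% of all genes). At an unadjusted p under 0.05, limma counted 11 as lower and 0 as higher, against 4.65% and 4.47% of all genes. In direction 44 were lower and 24 higher, where 41.5% of all genes were lower. With the replicate block the counts at an unadjusted p under 0.05 were 1 lower and 1 higher (4.53% of all genes in either direction). In direction 30 were then lower and 38 higher, with a median of 0.02. Of all 10916 genes 5232 were then lower and 5684 higher.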

How the data were processed

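Total RNA of 3T3-L1 cultures was hybridised to 10 Affymetrix arrays, per the labels. The authors deposited a linear intensity for each probe set and array. Its software and scaling are not given in the sources used here, and 22.5% of values are at or below 0. They also deposited a table with a ratio, a log10 ratio and a p-value, pooled over both times.

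The 64 array controls were left out, intensities were quantile normalised, raised to 14.3 (the size of the table's 2nd percentile) and put on the log2 scale. The brightest probe set stood for each of 18193 genes, the lowest 40% by mean (7277) were left out, and every comparison was a two-sided moderated test (lmFit and trended eBayes of limma 3.58.1, run in R 4.3.3) with Benjamini-Hochberg adjustment over 10916 genes, called under 0.05. CLA against LA was an additive fit with time; the single times and the interaction used 4 group means, with the lone CLA arrays assumed to vary like LA; the LA times used 8 arrays. Current symbols came from Entrez identifiers for 34741 of 34945 probe sets with 1 symbol. Precision is limited by the number of arrays, and the labels call the replicates biological without saying what was repeated, so p-values measure the spread between these arrays. The methods were tested on simulated data in which arrays varied independently, with no spread shared by a replicate number. That test therefore does not show how the fits behave with the differences between replicate numbers seen here.

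The LA replicate numbers pair arrays of 8 h and 12 h: deviations from the time means gave correlations of 0.855, 0.779, 0.503 and 0.553 within numbers 1, 2, 3 and 4, which the replicate block of an alternative fit takes up. Members, lists and tests were chosen with earlier results of these data known. Named were 25 members from a fixed list of 30 genes, those passing or with the 3 smallest p in each direction (at most 10 a comparison), the 2 highest and lowest means per family, untested members, and the 5 genes whose probe sets differed most in each of 2 comparisons. Alternatives changed the scaling, floor, filter, probe set rule, variance model, block and arrays included. Figures were drawn with matplotlib 3.10.9.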

Additional observations from a re-analysis of the deposited data

Results flagged for a closer look

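In groups of 4 LA arrays, 1 array can stand apart from the other 3. Among 115 such groups (58 genes at 2 times, less 1 with no spread), 10 had an end array whose gap to the next was above Dixon's critical value at 95% as a share of the group's range; chance flags about 1 in 20. At 8 h the replicate 1 array was the low one for Hnrnpm (5.40, the others 7.07 to 7.20), Hnrnpu (8.40, the others 9.87 to 10.2), Sf3b1 (7.23, the others 9.33 to 9.70) and Srsf11 (7.14, the others 8.83 to 9.09). The replicate 4 array of 8 h was low for Prpf8 (8.04) and Sf3a1 (6.06) and high for Snrpn (5.93, the others 3.84 to 4.07), and the replicate 3 array was high for Hnrnpl (8.55). At 12 h the replicate 4 array was low for Prpf6 (7.83) and high for Srsf2 (9.46). That array had the highest Actb 3' to 5' ratio, 5.67, whose part in these values was not tested. No member had a CLA difference that differed between the times after adjustment.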

How the results depend on the processing

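Direction was kept by all 4 calls of the LA replicate 1 comparison in the 19 settings without the block, with adjusted p of 0.011 to 0.080 for Sf3b1 (called in 12), 0.013 to 0.102 for Hnrnpa1 (11), 0.022 to 0.097 for Hnrnpdl (10) and 0.011 to 0.083 for Hnrnph1 (8). Centring the log2 values on array medians, as planned, gave the values of no scaling, since the median of each array lay at the floor, so linear values were also scaled to equal medians, an alternative chosen after seeing the data. Their number, 4 (8.79% of all genes were called), became 22 with values as deposited (14.8%), 0 with equal linear medians (1.31%), 9 of 53 with the lowest 60% of genes left out, which tests fewer genes (12.0%), 9 of 150 with every probe set tested (11.7%), 0 without the variance trend and 0 with a robust trend (0% of all genes in both), 26 (3 higher, 23 lower) with each array a unit (36.8%), and 0 to 8 leaving out 1 array (0% to 10.4%). Calls among the LA replicate numbers (33, with 50.1% of all genes) became 10 of 59 with no filter (11.3%), 73 of 150 probe sets (33.7%), and 0 to 39 leaving out 1 array (3.72% to 59.9%). Testing each probe set gave 1 member call at 8 h, against 2% of all probe sets, and 1 in the interaction, against 1.54%. The call was a dim Prpf6 probe set at the floor on 9 arrays. Leaving out 1 array gave 0 member calls in CLA against LA over both times, at 8 h and at 12 h. It also gave 0 in the interaction and between LA times. Without the LA replicate 1 array of 8 h, 0.211% of all genes were called over both times and 1.77% at 8 h. The shares at 12 h, in the interaction and between LA times were then 0.678%, 0.467% and 0%. No other array left out gave a higher share. Other causes were not tested.

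Values as deposited moved the median of all genes from 0.15 to -0.22 in CLA against LA and from 0.18 to -0.53 in LA replicate 1, and equal linear medians moved them to 0.19 and 0.05. With values as deposited the medians over both times were -0.61 for all members, -0.13 for SF3 and -0.51 for Prpf; at 8 h -0.59, 0.0014 and -0.40; at 12 h -0.70, -0.16 and -0.66, with -0.42 for Snrp; in LA replicate 1 -1.20 for all members, -1.26 for Srsf, -1.53 for Hnrnp, -0.52 for SF3, -1.02 for Snrp and -1.03 for Prpf. With equal linear medians, Snrp was at 0.047 over both times, SF3 and Snrp at 0.50 and 0.25 at 8 h, SF3 at -0.38 in the interaction and Prpf at -0.33 in LA replicate 1. The mean of all probe sets put Prpf at -0.13 at 12 h.

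The replicate block moved the CLA medians to -0.10 for Srsf, 0.028 for Hnrnp and 0.16 for Snrp over both times, to -0.10 for Hnrnp and 0.22 for Snrp at 8 h, and to 0.055 for all members, -0.039 for Srsf, 0.13 for Hnrnp, -0.014 for SF3 and 0.0095 for Prpf at 12 h. It changed no call. With 1 CLA array at each time and 10 arrays in all, the number of arrays limits what can be detected, and genes near the floor have compressed differences.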
